A study of Mus musculus with 18 samples.

Results

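The genes described here are the ligands, receptor and binding proteins of insulin-like growth factor (IGF) signalling in transplanted and cultured mouse fibroblasts. The symbols looked up among the genes of the deposited count table were *Igf1*, *Igf2*, *Igf1r*, *Igfbp2*, *Igfbp3*, *Igfbp4*, *Igfbp5*, *Igfbp6* and *Igfbp7*. All 9 were found among its 38924 genes. All 9 also passed the filter on low counts, which kept 16577 genes. Fibroblasts of heart, kidney and tail were isolated from male ROSA mT/mG mice (C57BL/6 background) 10 weeks of age and grown for 10 days. Part of the cells was placed under the kidney capsule of C57BL6/J mice of 10 to 11 weeks in a gelatin sponge, and CD45-;TdTomato+ cells were sorted 3 days later (HFs, KFs and TFs for heart, kidney and tail). The rest was plated again for 3 days and served as cultured controls (HFc, KFc and TFc), so that all groups share the tdTomato reporter and the earlier culture. RNA was sequenced in 18 libraries, 3 in each of the 6 groups. The donors' reporter is carried by all cell types of the mouse. The sort was thus meant to separate donor from host cells and, through CD45, to leave out leukocytes. It does not separate fibroblasts from other CD45- donor cells, and whether host cells or their RNA were carried along was not tested.

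IGF1 and IGF2 are secreted peptides that signal through IGF1R, a receptor tyrosine kinase at the cell surface, to promote growth, survival and matrix production. IGF-binding proteins (IGFBPs) hold the peptides in serum and in the extracellular matrix, lengthen their life and limit their access to the receptor, and proteases release the peptides by cutting the IGFBPs. Fibroblasts and other mesenchymal cells are a local source of IGF1 and of several IGFBPs in most organs.

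Library totals lay between 17927838 and 32245168 counts, and values are given as CPM (counts scaled to a common library size) after TMM normalization. The detection floor of 3 counts corresponded to between 0.089 and 0.18 CPM, and floors cover counting error only. Every pair of libraries in a group differed beyond counting noise, with a chi-square per degree of freedom of 4.74 to 7.65 between cultured and 11.5 to 258 between transplanted libraries, and each was counted as a replicate. KFs replicate 3 stood apart, with 1492 CPM of *Xist* and a summed 0.722 CPM of 4 Y-linked genes, against at most 0.404 CPM and between 175 and 230 CPM in the other 17 libraries, although all donors are given as male. The kidney transplant comparison of each of the 9 genes is therefore also given without it. All 7 fibroblast markers were above the floor in every library, except for 1 of them in KFc. Summed over the 7, the level was 11847 to 15610 CPM in the cultured libraries and 30535 to 122484 CPM in the transplanted libraries other than KFs replicate 3, which had 17661 CPM. The collagens carried this sum, and the mean of *Thy1*, a surface marker of fibroblasts, was lower after transplantation in each organ, at 127 and 33.8 CPM in HFc and HFs, 67.6 and 53.7 CPM in KFc and KFs, where the libraries overlapped, and 240.2 and 150.1 CPM in TFc and TFs. Proximal tubule markers summed to 22.4 to 25 CPM in HFc and 74.3 to 1059.6 CPM in HFs, with HFs replicate 2 at the top. The sum was 19.5 to 21.8 CPM in TFc and 120 to 299 CPM in TFs. In kidney fibroblasts the ranges overlapped, at 103 to 111 CPM in KFc and 54 to 112 CPM in KFs. Most of the KFc sum came from *Lrp2*, whose average was lower in KFs (41.0 against 96.5 CPM). *Aqp1* was lower too (5.64 against 8.19 CPM), while the averages of all other proximal tubule markers were higher in KFs. *Slc34a1*, *Slc27a2* and *Kap*, for example, had no counts in KFc and averaged 8.59, 7.62 and 7.41 CPM in KFs. Of the proximal tubule markers, 9 of the 9 were above the floor in every transplanted library, against 3 or 4 in every library of a cultured group. Markers of loop, distal tubule and collecting duct summed to at most 0.366 CPM in culture and to between 11.8 and 81.4 CPM after transplantation. *Kap* and *Umod*, which define tubule segments, had no counts in any cultured library and were present in every transplanted group. Of the 7 macrophage and leukocyte markers the summed level was highest in KFc, at 419 to 446 CPM, against 11.5 to 203 CPM in the other groups. The summed mural cell markers were also highest in KFc, at 1067 to 1093 CPM against 78.6 to 222 CPM elsewhere. *Myh11*, which smooth muscle cells also express, carried this sum with 956 ± 11.7 CPM in KFc, while the means of *Notch3* and *Rgs5* were highest in HFs and that of *Cspg4* in TFc. Endothelial markers summed to between 39.2 and 70.1 CPM in culture and between 59.5 and 110 CPM after transplantation. Among them *Cdh5* was at or below 3.43 CPM in every library. Its mean was higher after transplantation, at 0.141 and 2.4 CPM in HFc and HFs, 0.272 and 1.52 CPM in KFc and KFs, and 0.466 and 1.23 CPM in TFc and TFs. The 4 erythroid markers had no counts in any cultured library and at most 24.6 CPM after transplantation. The part of these other cell types in the results below was not tested, and in bulk samples fewer cells of a type and less RNA per cell cannot be told apart.

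**Figure D1:**
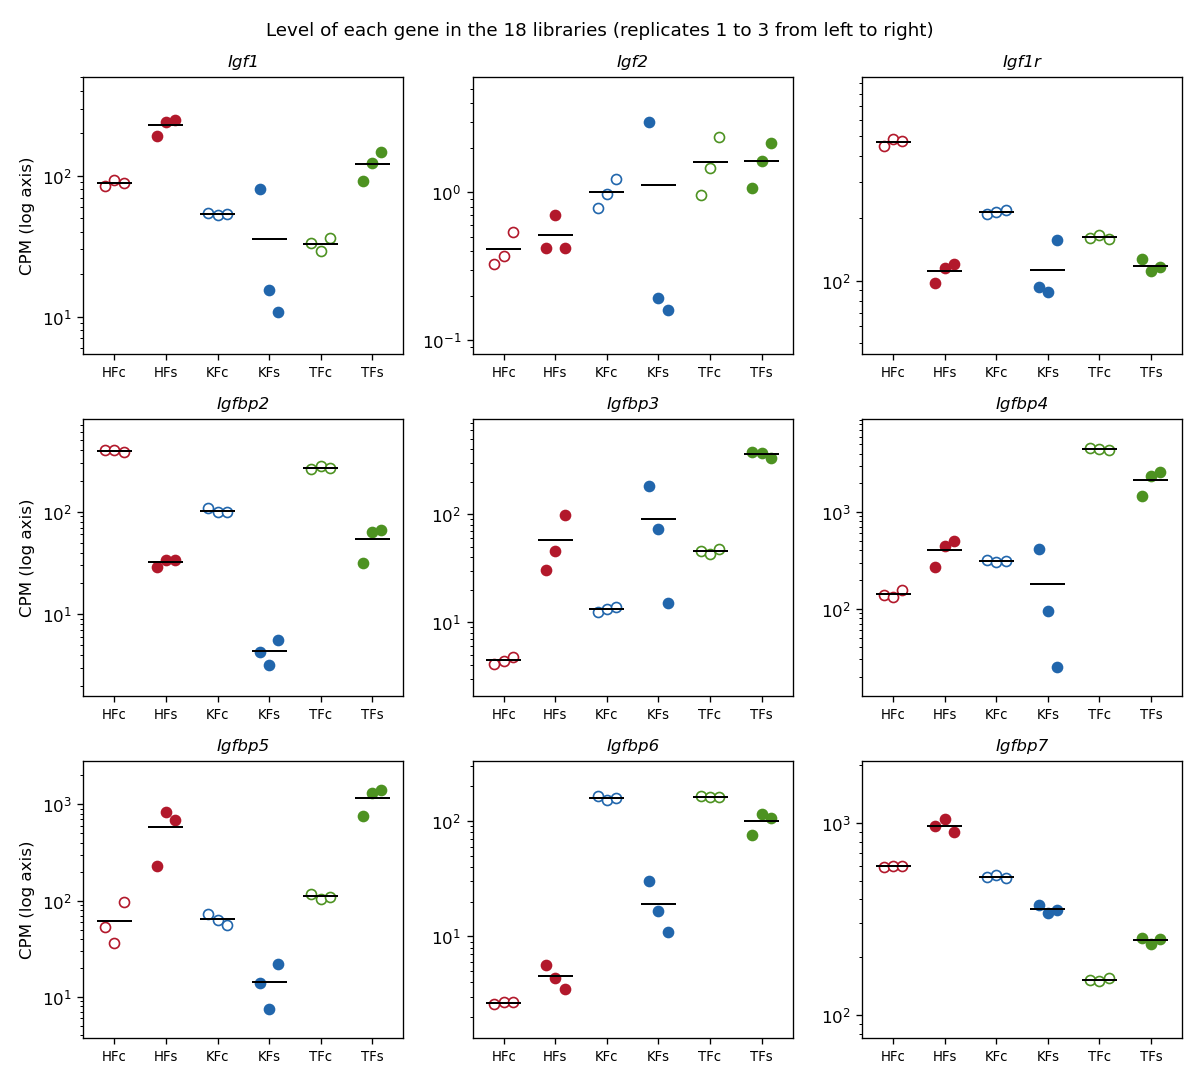
Level of each of the 9 genes in CPM (log axis) in the 6 groups. Each point is a library, open for cultured and filled for transplanted cells, and the bar is the mean of 3. *Igfbp2* lies lower in every transplanted group than in its culture, while the KFs points of *Igf1*, *Igf2* and *Igfbp4* spread more widely on this axis than those of any other group.

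To see how the IGF system differed after transplantation, each transplanted group was compared with the culture of the same organ (edgeR's quasi-likelihood test on all 18 libraries, Benjamini-Hochberg adjustment over all 16577 genes, with a gene counted as changed at an adjusted p under 0.05 and a log2 fold change beyond 1 in either direction). Of the 9 genes, 6 passed in heart fibroblasts (4 higher, 2 lower), 4 in kidney fibroblasts (1 higher, 3 lower) and 4 in tail fibroblasts (3 higher, 1 lower). Over all genes tested, the same rule called 27.7% in heart, 22.6% in kidney and 16.5% in tail fibroblasts. The median log2 fold change of the 9 genes was 0.74, -0.80 and 0.04 in heart, kidney and tail, beside 0.05, 0.09 and 0 over all genes. *Igfbp2* fell and *Igfbp3* rose in all 3 organs. *Igfbp5* rose in heart and tail fibroblasts and fell in kidney fibroblasts. *Igf1* rose in heart and tail fibroblasts, *Igf1r* fell in heart fibroblasts, and *Igf2* passed in none of the 3 comparisons. Without the limit on the fold change, 7 genes passed in heart, 6 in kidney and 7 in tail fibroblasts, and the share of all genes under that rule is not given. The replicates are described as biological, but whether each came from a separate donor is not stated, so p-values measure only the spread between these libraries.

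**Figure D2:**
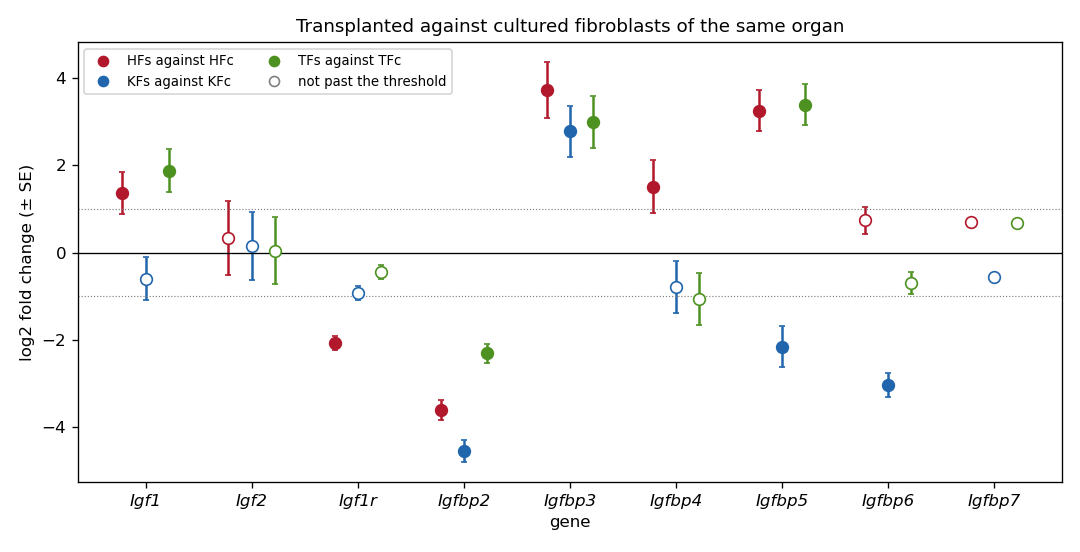
Log2 fold change (± SE) of the 9 genes, transplanted against cultured, for heart (red), kidney (blue) and tail (green). Filled points passed the threshold and dotted lines mark a log2 fold change of 1 and -1. *Igfbp5* has points at 3.26 and 3.39 in heart and tail and at -2.16 in kidney.

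*Igf1* (ENSMUSG00000020053, chromosome 10 from 87858265 to 87937042, plus strand, GRCm38) encodes the main postnatal IGF ligand. In heart fibroblasts it had 85.1, 93.4 and 88.8 CPM in culture and 193, 242 and 251 CPM after transplantation. In tail fibroblasts the values were 33.3, 29.5 and 36.2 CPM against 91.2, 123 and 148 CPM. In both organs the groups did not overlap. The rise was 1.36 ± 0.48 on the log2 scale in heart (adjusted p = 0.0257, edgeR) and 1.87 ± 0.50 in tail (adjusted p = 0.00754, edgeR). The heart call was close to the threshold: without any of HFc replicates 1, 2 and 3 or HFs replicates 2 and 3 the adjusted p lay between 0.0513 and 0.0706, with log2 fold changes from 1.32 to 1.39. In kidney fibroblasts *Igf1* had 54.4, 52.3 and 53.9 CPM in culture, and 80.2, 15.5 and 10.8 CPM in KFs replicates 1 to 3. Replicate 1 lay above all KFc libraries and the other libraries below them. The log2 fold change of -0.60 ± 0.48 did not pass (adjusted p = 0.324), and it became -2.02 (adjusted p = 1.81e-06) without KFs replicate 1 and -0.21 (adjusted p = 0.687) without KFs replicate 3. The order of group means was HFs, TFs, HFc, KFc, KFs and TFc, where TFs and HFc, KFc and KFs, and KFs and TFc overlapped. Macrophages, which the CD45- gate should remove from the transplanted cells, can express *Igf1*. The summed level of macrophage and leukocyte markers was 90.1 to 104 CPM in HFc and 88.4 to 148 CPM in HFs, 419 to 446 CPM in KFc and 11.5 to 127 CPM in KFs, and 175 to 203 CPM in TFc and 33.6 to 41.7 CPM in TFs.

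*Igf2* (ENSMUSG00000048583, chromosome 7 from 142650766 to 142666816, minus strand) encodes the fetal IGF ligand, which is imprinted and read from the paternal allele. It was low in every group. The group means were 0.414 ± 0.11 CPM (SD, n = 3) in HFc, 0.515 ± 0.165 in HFs, 0.997 ± 0.224 in KFc, 1.59 ± 0.719 in TFc and 1.62 ± 0.546 in TFs. In KFs the 3 libraries had 2.99, 0.192 and 0.16 CPM, which is between 4 and 74 counts. No transplant comparison passed, with log2 fold changes of 0.33 ± 0.85 in heart, 0.15 ± 0.78 in kidney and 0.04 ± 0.76 in tail. Without KFs replicate 1 the kidney value was -2.46 (adjusted p = 0.00207), so that its direction rests on that library, and without KFs replicate 3 it was 0.61 (adjusted p = 0.49). Without KFs replicate 1, KFs was below TFs (log2 -3.16, adjusted p = 0.00056) and HFs above KFs by 1.51 (adjusted p = 0.0456). Under the main settings no organ comparison of *Igf2* passed. The nearest was HFc against TFc (log2 -1.94 ± 0.82, adjusted p = 0.071, edgeR). It passed with DESeq2 (adjusted p = 0.0469), with library size alone (0.0482), with only the groups compared (0.0022) and without KFs replicate 3 (0.0272). With only the groups compared, HFc also lay below KFc (log2 -1.34, adjusted p = 0.0302) and HFs below TFs (log2 -1.61, adjusted p = 0.0283).

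*H19*, a long noncoding RNA read from the maternal allele of the same imprinted domain, lies on the minus strand of chromosome 7 from 142575529 to 142578143, with 72.6 kb between it and *Igf2*. It had the highest fitted rise among the IGF-related genes tested in each organ. In heart fibroblasts *H19* had 0.765, 0.982 and 0.934 CPM in culture and 144, 170 and 62.3 CPM after transplantation. In kidney fibroblasts the values were 15.8, 17.1 and 16.1 CPM against 654, 224 and 28.9 CPM, and in tail fibroblasts 0.861, 1.29 and 2.1 CPM against 86, 53.3 and 93.9 CPM. Every transplanted library thus lay above every cultured library of its organ. The log2 fold changes were 7.12 ± 0.93 in heart (adjusted p = 1.14e-05), 4.21 ± 0.74 in kidney (adjusted p = 0.000262) and 5.81 ± 0.87 in tail (adjusted p = 9.79e-05). Without KFs replicate 3 the kidney value was 4.70 (adjusted p = 2.51e-07). In the same libraries *Igf2* did not pass the test, and whether the 2 genes of the domain differed in response was not tested.

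*Igf1r* (ENSMUSG00000005533, chromosome 7 from 67952827 to 68233668, plus strand) encodes the receptor for both ligands. Its cultured groups were apart and its transplanted groups lay together. HFc had 446, 482 and 474 CPM, KFc 209, 215 and 220 CPM and TFc 161, 167 and 158 CPM. HFs had 97.5, 115 and 121 CPM, KFs 93.1, 87.9 and 156 CPM and TFs 127, 112 and 116 CPM. All transplanted libraries of an organ lay below all of its cultured ones. The fall in heart fibroblasts was -2.07 ± 0.16 on the log2 scale (adjusted p = 9.29e-08). In kidney fibroblasts the value was -0.93 ± 0.16 (adjusted p = 0.000202) and in tail fibroblasts -0.46 ± 0.16 (adjusted p = 0.0334), both inside the fold limit. Without KFs replicate 3, the highest of its group, the kidney value was -1.29 (adjusted p = 9.91e-09) and passed. Between cultures, HFc was above TFc by 1.53 ± 0.16 (adjusted p = 1.95e-06) and above KFc by 1.12 ± 0.16 (adjusted p = 7.35e-05). KFc against TFc gave 0.41 ± 0.16 (adjusted p = 0.0571), which passed without KFs replicate 3 (0.43, adjusted p = 0.0002). Between transplanted groups no difference passed, with log2 differences from -0.09 to -0.02. Without KFs replicate 3, however, KFs lay below TFs (log2 -0.38, adjusted p = 0.00252) and below HFs, with a log2 difference of HFs against KFs of 0.31 (adjusted p = 0.0088). The heart response differed from the tail response (log2 -1.61 ± 0.23, adjusted p = 0.000151) and from the kidney response (log2 -1.14 ± 0.23, adjusted p = 0.00182). The kidney response passed against the tail response only without KFs replicate 3 (log2 -0.81, adjusted p = 0.00012).

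*Igfbp2* and *Igfbp5* are neighbours on chromosome 1 that are read toward each other, with 5.46 kb between their ends, so their promoters lie at the far ends of the pair. *Igfbp3* lies on chromosome 11, 3.54 kb from *Igfbp1*, which did not pass the filter. The promoter windows of the 3 genes, from 250 bases before to 50 bases after a RefSeq start on GRCm38.p6, are shown because each of these genes passed in all 3 organs. Capitals mark matches on either strand to 5 short motifs, and no matches overlapped. The TATA box was searched as TATAAA. The CCAAT box was searched by the letters of its name. For the GC box, which Sp1 binds, the search used GGGCGG. The AP-1 site, bound by Fos and Jun proteins, was written as TGACTCA. The E-box, bound by helix-loop-helix proteins, was written as CACGTG.
Igfbp2, chr1:72824230-72824529, plus strand: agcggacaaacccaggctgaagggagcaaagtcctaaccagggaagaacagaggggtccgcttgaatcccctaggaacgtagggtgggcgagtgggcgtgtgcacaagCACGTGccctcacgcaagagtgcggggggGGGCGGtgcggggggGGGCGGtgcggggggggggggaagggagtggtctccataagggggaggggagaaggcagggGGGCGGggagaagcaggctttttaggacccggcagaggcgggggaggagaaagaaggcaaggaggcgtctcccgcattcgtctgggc
Igfbp3, chr11:7213874-7214173, minus strand: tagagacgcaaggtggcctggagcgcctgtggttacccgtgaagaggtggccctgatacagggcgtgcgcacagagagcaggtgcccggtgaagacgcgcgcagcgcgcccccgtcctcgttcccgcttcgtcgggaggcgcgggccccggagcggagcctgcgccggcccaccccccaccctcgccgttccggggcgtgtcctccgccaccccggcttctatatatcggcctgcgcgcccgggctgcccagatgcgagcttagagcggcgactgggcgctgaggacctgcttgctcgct
Igfbp5, chr1:72874816-72875115, minus strand: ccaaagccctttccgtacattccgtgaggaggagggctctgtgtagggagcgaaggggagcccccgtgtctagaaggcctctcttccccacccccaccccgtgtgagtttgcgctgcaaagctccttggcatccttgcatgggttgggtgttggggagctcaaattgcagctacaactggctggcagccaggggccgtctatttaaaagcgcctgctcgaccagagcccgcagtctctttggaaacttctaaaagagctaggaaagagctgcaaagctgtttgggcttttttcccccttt
The *Igfbp2* window held 3 GC boxes and 1 E-box, and neither of the other windows held any of the 5 motifs. Of all 32851 promoter windows, 35.7% held a GC box, 7.15% an E-box, 13.6% a TATA box, 37.4% a CCAAT box and 5.2% an AP-1 site. The GC content was 67% for *Igfbp2*, 71.7% for *Igfbp3* and 56.3% for *Igfbp5*, with a median of 52.7% over all windows.

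*Igfbp2* (ENSMUSG00000039323, chromosome 1 from 72824503 to 72852474, plus strand) encodes a binding protein that also contacts integrins. It fell in all 3 organs. The cultured libraries had 399, 397 and 384 CPM in heart, 108, 99.9 and 98.3 CPM in kidney and 261, 276 and 264 CPM in tail fibroblasts. After transplantation they had 29.2, 33.5 and 33.8 CPM in heart, 4.29, 3.17 and 5.61 CPM in kidney and 31.4, 63.4 and 66.8 CPM in tail fibroblasts. No transplanted library reached the lowest cultured one of any organ. The log2 fold changes were -3.61 ± 0.23 in heart (12.2-fold lower, adjusted p = 1.12e-08), -4.55 ± 0.25 in kidney (23.5-fold lower, adjusted p = 4.11e-09) and -2.31 ± 0.22 in tail (4.95-fold lower, adjusted p = 1.37e-06). Without KFs replicate 3 the kidney value was -4.83 (adjusted p = 1.82e-09). The falls in heart and kidney were each larger than in tail, with a difference of -1.30 ± 0.30 on the log2 scale for heart minus tail (adjusted p = 0.00569) and -2.25 ± 0.31 for kidney minus tail (adjusted p = 0.000351). The order HFc, TFc and KFc in culture held for the means, but HFc against TFc was near the threshold (log2 0.56 ± 0.21, adjusted p = 0.0415) and did not pass without any one of the 6 libraries, with an adjusted p between 0.0763 and 0.113. KFc was lower than TFc (log2 -1.39 ± 0.21, adjusted p = 0.000115).

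*Igfbp3* (ENSMUSG00000020427, chromosome 11 from 7206086 to 7213923, minus strand) encodes the main IGF carrier in serum. It rose in all 3 organs. In heart fibroblasts it had 4.12, 4.4 and 4.82 CPM in culture and 30.4, 45.7 and 98.8 CPM after transplantation, a log2 fold change of 3.72 ± 0.64 (13.2-fold, adjusted p = 0.000153). In tail fibroblasts it had 45.9, 42.9 and 47.7 CPM against 382, 372 and 331 CPM, a log2 fold change of 2.99 ± 0.59 (adjusted p = 0.000962). In kidney fibroblasts the cultured values were 12.4, 13.3 and 13.9 CPM and the transplanted ones 182, 74 and 15.1 CPM, so that KFs replicate 3 lay just above the cultures while replicate 1 was highest. The log2 fold change of 2.78 ± 0.59 (adjusted p = 0.0012) became 1.76 (adjusted p = 0.0078) without KFs replicate 1 and 3.24 (adjusted p = 3.23e-06) without KFs replicate 3. Tail fibroblasts had the highest mean in both states: HFc was below TFc (log2 -3.36 ± 0.63, adjusted p = 0.000509) and HFs below TFs (log2 -2.63 ± 0.58, adjusted p = 0.00379). KFc was below TFc (log2 -1.79 ± 0.58, adjusted p = 0.0241), which did not pass without KFc replicates 1, 2 or 3 or TFc replicates 1 or 3 (adjusted p from 0.0513 to 0.0719). KFs was below TFs (log2 -2.00 ± 0.56, adjusted p = 0.015), which did not pass without KFs replicate 2 (adjusted p = 0.055) and was -3.01 (adjusted p = 0.000593) without KFs replicate 1. Without HFs replicate 3, HFs against TFs gave -3.22 (adjusted p = 0.00348). No difference between the 3 responses passed.

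*Igfbp4* (ENSMUSG00000017493, chromosome 11 from 99041244 to 99054392, plus strand) encodes a binding protein that inhibits IGF action until it is cut by pappalysins. It set tail fibroblasts apart. TFc had 4534, 4449 and 4355 CPM and TFs 1452, 2353 and 2560 CPM, while no heart or kidney library exceeded 496 CPM. In culture HFc was below TFc (log2 -4.97 ± 0.70, adjusted p = 3.74e-05) and KFc was below TFc (log2 -3.84 ± 0.67, adjusted p = 0.000362). After transplantation HFs was below TFs (log2 -2.38 ± 0.63, adjusted p = 0.0116), which did not pass without HFs replicate 1 (-2.13, adjusted p = 0.0589), and KFs was below TFs (log2 -3.57 ± 0.66, adjusted p = 0.000875). The latter value was -5.15 (adjusted p = 2.65e-06) without KFs replicate 1 and -3.05 (adjusted p = 0.000102) without KFs replicate 3.

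Within organs, *Igfbp4* rose in heart fibroblasts from 139, 132 and 156 CPM to 273, 450 and 496 CPM. The log2 fold change of 1.51 ± 0.61 (adjusted p = 0.045) was near the threshold and did not pass without any of HFc replicates 1, 2 and 3 or HFs replicates 2 and 3 (adjusted p from 0.0859 to 0.11). In tail fibroblasts the change of -1.07 ± 0.60 did not pass (adjusted p = 0.173), although all TFs libraries lay below all TFc libraries, and it passed without KFs replicate 3 (-1.08, adjusted p = 0.022), which takes no part in this comparison but shares the estimate of spread. KFc had 317, 307 and 309 CPM and KFs 418, 94.2 and 25 CPM. The kidney change of -0.80 ± 0.60 (adjusted p = 0.288) became -2.38 (adjusted p = 0.000354) without KFs replicate 1 and -0.32 (adjusted p = 0.532) without KFs replicate 3.

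*Igfbp5* (ENSMUSG00000026185, chromosome 1 from 72857932 to 72874884, minus strand) encodes a binding protein that is stored in the extracellular matrix. It rose in heart and tail fibroblasts and fell in kidney fibroblasts. In heart fibroblasts it had 52.8, 36.1 and 96 CPM in culture and 229, 839 and 695 CPM after transplantation. In tail fibroblasts it had 118, 104 and 109 CPM against 766, 1313 and 1404 CPM. Both rises were clear of the spread, at 3.26 ± 0.48 (adjusted p = 3.51e-05) and 3.39 ± 0.48 (adjusted p = 6e-05). In kidney fibroblasts the values were 73.3, 62.8 and 56.1 CPM in culture and 13.9, 7.44 and 21.9 CPM after transplantation, a fall of -2.16 ± 0.47 (adjusted p = 0.00131) with no overlap, which was -2.64 (adjusted p = 0.000512) without KFs replicate 3. No difference between the cultures of the 3 organs passed in the fit of all 18 libraries, with log2 differences from -0.85 to -0.06. Every TFc library nevertheless lay above every HFc and KFc library. With only the groups compared, KFc was below TFc (log2 -0.76, adjusted p = 2.93e-08, edgeR) and HFc below TFc (log2 -0.89, adjusted p = 0.00121). Without HFc replicate 3, HFc was below TFc (log2 -1.32, adjusted p = 0.0446). After transplantation KFs lay below TFs (log2 -6.34 ± 0.55, adjusted p = 1.11e-06) and HFs above KFs by 5.36 ± 0.53 (adjusted p = 4.13e-06), while HFs and TFs overlapped (-0.98 ± 0.44, adjusted p = 0.126). The kidney response differed from the tail response (log2 -5.55 ± 0.67, adjusted p = 0.000125), and the heart response from the kidney response by 5.41 ± 0.67 (adjusted p = 6.78e-05).

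*Igfbp6* (ENSMUSG00000023046, chromosome 15 from 102144362 to 102149511, plus strand) encodes a binding protein with a preference for IGF2. It was low in heart fibroblasts and high in kidney and tail cultures. HFc had 2.62, 2.71 and 2.7 CPM, KFc 164, 151 and 157 CPM and TFc 164, 160 and 161 CPM. HFc was below TFc (log2 -5.91 ± 0.32, adjusted p = 1.39e-09) and below KFc (log2 -5.87 ± 0.32, adjusted p = 4.32e-09), while KFc and TFc overlapped. After transplantation HFs had 5.65, 4.41 and 3.49 CPM, KFs 30, 16.5 and 10.9 CPM and TFs 75.8, 115 and 106 CPM. Kidney fibroblasts fell by 3.04 on the log2 scale (SE 0.27, adjusted p = 4.23e-07), also without KFs replicate 3 (-2.80, adjusted p = 5.59e-08). The heart value of 0.74 ± 0.31 (adjusted p = 0.0541) and the tail value of -0.71 ± 0.25 (adjusted p = 0.035) did not pass both limits. The order of the means was tail, kidney and heart in both states. KFs was below TFs (log2 -2.37 ± 0.26, adjusted p = 1.13e-05), also without KFs replicate 3 (-2.09, adjusted p = 2.77e-06), where KFc and TFc differed by -0.04 ± 0.25.

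*Igfbp7* (ENSMUSG00000036256, chromosome 5 from 77349240 to 77408041, minus strand) encodes a distant member that binds IGFs weakly and is deposited with collagen IV. Neighbouring groups in the order HFs, HFc, KFc, KFs, TFs and TFc did not overlap. HFc had 591, 600 and 598 CPM and HFs 961, 1049 and 895 CPM. KFc had 524, 536 and 519 CPM against 375, 340 and 352 CPM in KFs, and TFc 152, 151 and 156 CPM against 252, 236 and 248 CPM in TFs. The log2 fold changes were 0.70 ± 0.07 in heart (adjusted p = 1.18e-06), -0.57 ± 0.07 in kidney (adjusted p = 1.35e-05) and 0.68 ± 0.07 in tail (adjusted p = 4.53e-06), all inside the fold limit. The kidney value was -0.60 (adjusted p = 5.08e-06) without KFs replicate 3. In both states the tail level was the lowest of the 3 organs, with HFc above TFc by 1.96 ± 0.07 (adjusted p = 3.89e-11) and HFs above TFs by 1.98 ± 0.07 (adjusted p = 1.66e-10). KFc was above TFc by 1.78 ± 0.07 (adjusted p = 5.71e-10) and KFs above TFs by 0.54 ± 0.07 (adjusted p = 6.3e-05). The kidney response differed from the tail response (log2 -1.24 ± 0.10, adjusted p = 5.78e-06).

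To compare the binding proteins with each other, CPM was divided by the exon length of each gene in kilobases, and the share of each gene in the summed level of the 6 IGFBP genes was taken in each library. *Igfbp7* held most of this level in heart and kidney fibroblasts, with 65.6% ± 0.471 (SD, n = 3) in HFc, 78% ± 6.99 in HFs, 60.7% ± 1.12 in KFc and 78.6% ± 14.7 in KFs. The KFs libraries had 62.7%, 81.7% and 91.5% in replicates 1 to 3. In tail fibroblasts *Igfbp4* had the largest share, with 69.1% ± 0.447 in TFc and 42.7% ± 4.44 in TFs. The second place differed by group. It was held by *Igfbp2* in HFc, at 28.3% ± 0.75, and by *Igfbp6* in KFc, at 19.7% ± 0.718, while in TFs *Igfbp7*, at 18.8% ± 4.4, and *Igfbp5*, at 17.1% ± 2.18, overlapped. In each organ the *Igfbp2* share was lower after transplantation, at 1.69% in HFs, 0.641% in KFs and 2.56% in TFs. The summed level itself was 753 ± 4.86 CPM per kb in HFc and 1031 ± 111 in HFs, 717 ± 9.72 in KFc and 385 ± 95.2 in KFs, and 1456 ± 20.0 in TFc and 1110.01 ± 208 in TFs. On the same scale *Igf1r* was at most 27.8 ± 1.12 CPM per kb, in HFc, and *Igf1* at most 23.1 ± 3.17, in HFs. No test was made on shares or on levels per length.

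**Figure D3:**
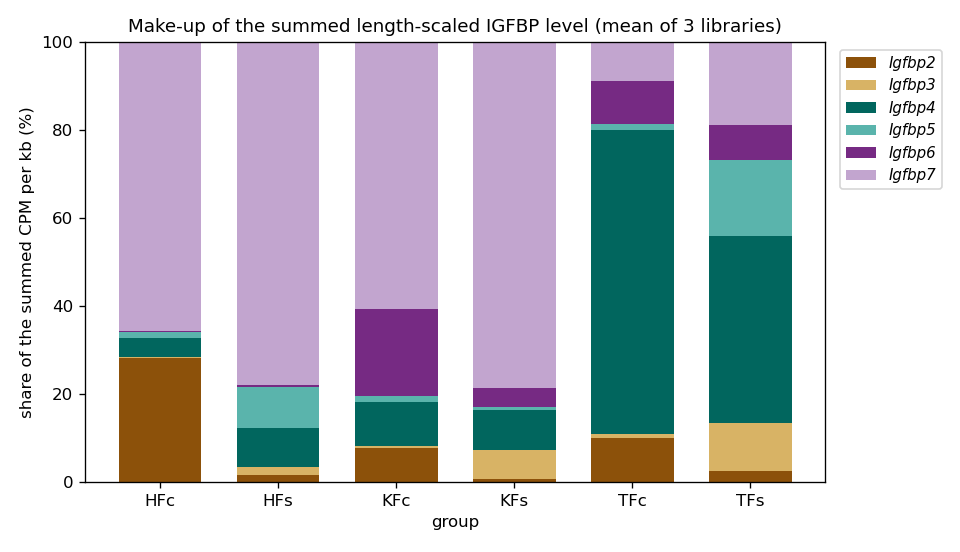
Share of each of the 6 IGFBP genes in their summed CPM per kb, as a percentage, by group (mean of 3 libraries). *Igfbp7* holds 60.7% to 78.6% in the heart and kidney groups, and *Igfbp4* 69.1% and 42.7% in the tail groups.

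The organs were also compared within each state, at an adjusted p of 0.05 with no limit on the fold change. In culture 7 of the 9 genes differed between HFc and TFc, 4 between KFc and TFc and 3 between HFc and KFc, where the rule called 41.9%, 36.4% and 29.2% of all genes. After transplantation 5 differed between HFs and TFs, 7 between KFs and TFs and 5 between HFs and KFs, where it called 23.1%, 29.1% and 33.2% of all genes. Among the values not yet given, *Igf1* was higher in HFc than in TFc by 1.43 ± 0.49 (adjusted p = 0.0279), and this call was lost without any one of the 6 libraries (adjusted p from 0.0523 to 0.0912). *Igf1* was higher in HFs than in KFs by 2.69 ± 0.51 (adjusted p = 0.000964) and lower in KFs than in TFs (log2 -1.77 ± 0.49, adjusted p = 0.0139). Without KFs replicate 1, which had the highest *Igf1* of its group, these values were 4.11 (adjusted p = 9.69e-09) and -3.19 (adjusted p = 7.32e-08). Over all alternatives they ranged from 2.28 to 4.11 and from -3.19 to -1.34. The difference between KFs and TFs was lost without KFs replicate 2 (adjusted p = 0.0544) or TFs replicate 3 (adjusted p = 0.0536). *Igfbp2* was higher in HFs than in KFs by 2.89 ± 0.24 (adjusted p = 6.44e-07) and lower in KFs than in TFs (log2 -3.64 ± 0.24, adjusted p = 9.69e-08). It was lower in HFs than in TFs (log2 -0.75 ± 0.21, adjusted p = 0.0189), which was lost without HFs replicates 1 or 2 or TFs replicates 2 or 3 (adjusted p from 0.0543 to 0.0965). *Igfbp2* was higher in HFc than in KFc (log2 1.95 ± 0.21, adjusted p = 5.86e-06). *Igfbp6* was lower in HFs than in KFs (log2 -2.10 ± 0.28, adjusted p = 6.63e-05) and in TFs (log2 -4.47 ± 0.30, adjusted p = 5.3e-08), while *Igfbp7* was higher in HFs than in KFs (log2 1.45 ± 0.07, adjusted p = 4.32e-09). Comparisons with KFs changed with single libraries. HFs against KFs gave -1.11 (adjusted p = 0.0213) for *Igfbp3* without KFs replicate 3 and 2.76 (adjusted p = 0.00019) for *Igfbp4* without KFs replicate 1, where the full values of -0.63 and 1.18 did not pass.

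The difference between responses was tested directly, as the log2 fold change of one organ minus that of another. Here 4 genes differed between heart and tail, 5 between kidney and tail and 6 between heart and kidney fibroblasts, where the rule (adjusted p of 0.05) called 22.8%, 11.1% and 26.2% of all genes. Against tail, the kidney response was lower for all 5, which were *Igf1*, *Igfbp2*, *Igfbp5*, *Igfbp6* and *Igfbp7*. The 3 pairs share groups, so their counts are not independent. The *Igf1* differences were near the threshold, at -2.47 ± 0.69 for kidney minus tail (adjusted p = 0.0317) and 1.96 ± 0.68 for heart minus kidney (adjusted p = 0.0459). Without KFs replicate 1 they were -3.89 (adjusted p = 5.14e-07) and 3.38 (adjusted p = 9.75e-07).

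KFs replicate 1 was the highest of its group for 6 of the 9 genes, and over 1.5 times the higher of the other libraries for *Igf1*, *Igf2*, *Igfbp3*, *Igfbp4* and *Igfbp6*. It also had the most fibroblast marker RNA in KFs, at 92505 CPM against 68656 and 17661 CPM in replicates 2 and 3, and its leukocyte marker level was 127 CPM against 97.3 and 11.5 CPM. The part of these levels in the spread of the 5 genes was not tested. Without KFs replicate 1, 7 of the 9 genes passed in kidney fibroblasts (1 higher, 6 lower), where 4 passed with it. The share of all genes that passed in this refit is not given, so the higher count is not read as particular to the 9 genes.

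Beyond the 9 genes, 52 further genes of IGF signalling were grouped by role, and 47 of them were tested. In heart fibroblasts 15 passed (6 higher, 9 lower), in kidney fibroblasts 15 (10 higher, 5 lower) and in tail fibroblasts 12 (6 higher, 6 lower), beside the 27.7%, 22.6% and 16.5% of all genes given above. Without KFs replicate 3 the kidney count was 18 (11 higher, 7 lower), in a refit whose share of all genes is not given. All 6 genes of the list of IGFBP proteases and their inhibitors rose in kidney fibroblasts (median log2 fold change 2.66), and 2 rose in heart and 1 in tail fibroblasts. The kidney value of *Pappa*, 1.08 ± 0.23, was inside the fold limit without KFs replicate 2 (0.63, adjusted p = 0.00992). Stanniocalcins block pappalysins, and *Stc1* rose by 3.73 ± 0.78 in heart (adjusted p = 0.000805) and 3.50 ± 0.69 in kidney (adjusted p = 0.000651). *Stc2* rose by 3.07 ± 0.39 in kidney (adjusted p = 1.19e-05). *Adam12*, a metalloprotease that cuts IGFBPs, rose by 2.22 ± 0.23 in heart (adjusted p = 1.31e-06) and 2.24 ± 0.23 in kidney (adjusted p = 1.79e-06). *Htra1*, a secreted serine protease, rose by 3.10 ± 0.12 in tail (adjusted p = 2.12e-10) and 1.42 ± 0.11 in kidney (adjusted p = 1.06e-07). The pappalysin *Pappa2* was at or under 3 counts in every KFc library and at least 8.56-fold higher in KFs, computed against that floor over the group.

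Proteins that share the IGFBP domain but bind IGFs weakly or not at all changed in both directions. Of the 9 tested, 5 fell and 2 rose in heart, 5 fell and 1 rose in kidney, and 6 fell and 1 rose in tail fibroblasts, with medians of -1.10, -1.16 and -1.78 on the log2 scale. Over all genes tested 9.33%, 7.99% and 5.53% fell and 18.3%, 14.7% and 11.0% rose in the same order of organs. In heart *Ccn2*, *Ccn4*, *Ccn5*, *Esm1* and *Crim1* fell and *Htra3* and *Kazald1* rose, and in kidney *Ccn1*, *Ccn2*, *Ccn5*, *Crim1* and *Kazald1* fell and *Htra3* rose. *Ccn2*, the connective tissue growth factor, fell in heart (log2 -2.90 ± 0.25, adjusted p = 2.42e-07) and in tail (log2 -2.70 ± 0.25, adjusted p = 1.29e-06). *Ccn5*, a related matricellular protein, fell in kidney (log2 -4.14 ± 0.36, adjusted p = 3.01e-07), and *Ccn3* in tail (log2 -2.62 ± 0.58, adjusted p = 0.00231). *Esm1*, a secreted proteoglycan, fell in heart (log2 -3.11 ± 0.34, adjusted p = 1.85e-06) and in tail (log2 -2.33 ± 0.32, adjusted p = 5.09e-05). The serine protease gene *Htra3* went the other way in heart, with a rise of 4.26 ± 0.39 (adjusted p = 3.19e-07).

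Downstream of the receptor, 4 of the 24 signalling genes passed in heart fibroblasts (1 higher, 3 lower) and 1 in each of kidney and tail fibroblasts. Beside this list, the same rule called 27.7%, 22.6% and 16.5% of all genes in heart, kidney and tail. The genes named from this list, and *Igf2r*, *Igf2bp1* and *Igfals* below, were chosen after their values were seen. *Irs2*, a docking protein for the insulin and IGF1 receptors, rose in all 3 organs. In heart fibroblasts it had 8.74, 9.71 and 8.6 CPM in culture and 39.2, 30.8 and 41.6 CPM after transplantation (log2 2.04 ± 0.18, adjusted p = 3.05e-07). In kidney the rise was 1.25 ± 0.18 (adjusted p = 4.29e-05) and in tail 1.06 ± 0.18 (adjusted p = 0.000274). Both fell inside the fold limit without 1 library, at 0.93 without KFs replicate 1 and 0.99 without TFc replicate 2. *Irs1*, the related docking protein, fell in heart fibroblasts from 260, 247 and 270 CPM to 68.3, 67.3 and 51.8 CPM (log2 -2.05 ± 0.22, adjusted p = 1.41e-06), and the kidney and tail values of -0.32 ± 0.21 and -0.23 ± 0.21 did not pass. The kinase genes *Akt1* (-1.23 ± 0.13, adjusted p = 1.11e-06) and *Pik3cb* (-2.18 ± 0.40, adjusted p = 0.000248) also fell in heart. Of the other receptors, *Igf2r*, which clears IGF2, rose in tail by 1.08 ± 0.21 (adjusted p = 0.000811). The insulin receptor-related gene *Insrr* was at or under 3 counts in every TFc library and at least 8.54-fold higher in TFs against that floor over the group. In kidney *Insrr* gave 2.85 ± 0.97 (adjusted p = 0.0234), from 1 to 6 counts in KFc and 7 to 44 in KFs, and did not pass without KFs replicate 1 (adjusted p = 0.156) or KFc replicates 1 or 2 (adjusted p = 0.0701 and 0.0913). Among the IGF2 mRNA-binding proteins *Igf2bp1* fell in heart (log2 -1.28 ± 0.23, adjusted p = 0.00024). *Igfals*, the serum partner of IGFBP3, did not pass in any organ, but it was near the floor, with group means of at most 0.382 CPM. Every library of HFc, HFs and KFc was at or under 3 counts, so its change could hardly be measured.

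**Figure D4:**
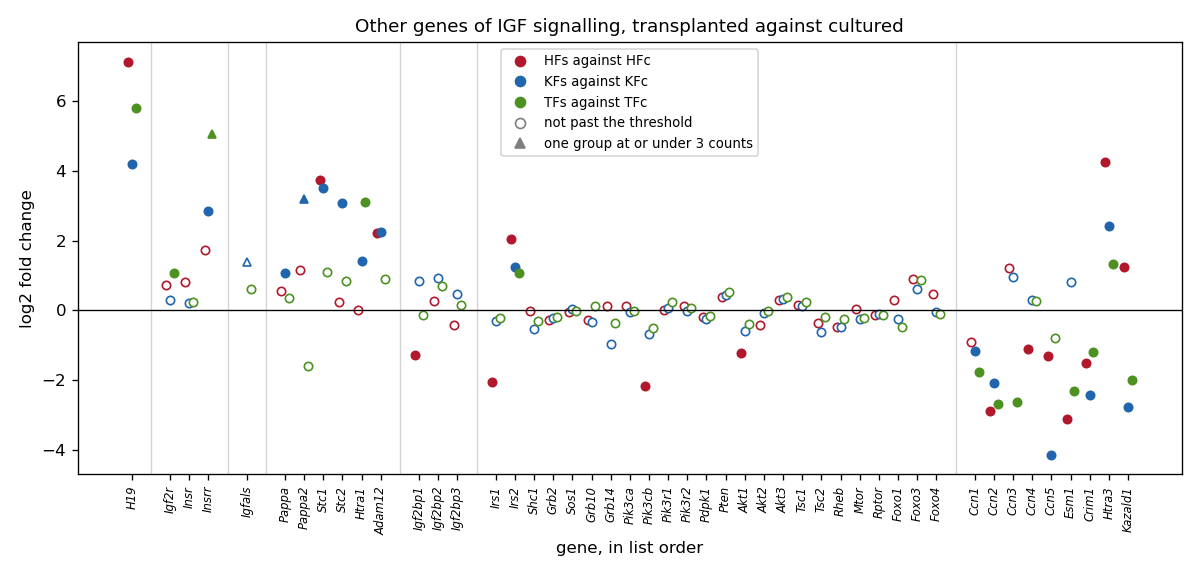
Log2 fold change, transplanted against cultured, of the tested genes of IGF signalling, grouped by list between grey lines, in heart (red), kidney (blue) and tail (green). Filled points passed the threshold, and a triangle marks a comparison with one group at or under 3 counts, whose fitted value is no bound. *H19* is the highest point in each organ, and most signalling genes lie near 0.

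The tested genes whose level was most like that of a member, by Pearson's r of log2(CPM + 1) over the 18 libraries, were *Camk2a* (r = 0.978) and *Asah2* (r = 0.916) for *Igf1*, *Gulp1* (0.826) and *Laptm4a* (0.791) for *Igf2*, and *Vps53* (0.976) and *Slc35a1* (0.973) for *Igf1r*. For the binding proteins they were *Mbnl1* (0.985) and *S100a4* (0.971) for *Igfbp2*, *Col6a3* (0.965) and *Gm7497* (0.959) for *Igfbp3*, *Klhl29* (0.985) and *Gaa* (0.948) for *Igfbp4*, *Itm2b* (0.942) and *Naglu* (0.933) for *Igfbp5*, *Swap70* (0.983) and *Radil* (0.967) for *Igfbp6*, and *Gab2* (0.959) and *Notch3* (0.950) for *Igfbp7*. The libraries share group means and scaling, so these values are a description.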

How the data were processed

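RNA of 18 libraries (total RNA, stranded, single-end reads of 75 bases) was quantified by the authors with RSEM and Bowtie2 on GRCm38, and they deposited expected counts per gene as whole numbers, not normalized and not pooled. The submitters' processing notes name mm9, and no coordinate was taken from the count table. Positions, exon lengths and symbols came from GENCODE mouse release 21 (GRCm38), and promoter windows from RefSeq, where all 9 genes matched. Groups were taken from the sample titles. The genes and lists were chosen with earlier results of these data known. Counts were fitted in R 4.3.3 with edgeR 4.0.16 (filterByExpr, TMM, glmQLFit and glmQLFTest, 1 mean per group, all 18 libraries; common biological coefficient of variation 0.24), and SE is the absolute log2 fold change over the root of F. A fit that includes KFs shares its spread with all comparisons. Further genes were named by the 6 largest log2 fold changes per transplant comparison among the lists, and by the 2 highest correlations per member. Alternatives were DESeq2 1.42.0, its size factors in edgeR, library size alone, no filter, a mean of at least 10 counts, a replicate block, only the groups compared, other fold limits, and each library left out. The same alternatives were applied to the pathway lists after the data had been seen. The method was also run on simulated counts, drawn with the same coefficient of variation of 0.24 for every gene and group. That run could not test the fit under the unequal spread of cultured and transplanted libraries. Figures were made with matplotlib 3.10.9.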

Additional observations from a re-analysis of the deposited data

Results flagged for a closer look

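The response to transplantation differed between organs, by the interaction term of the edgeR fit, in 15 instances among the 9 genes, each given as the log2 fold change of the first organ minus that of the second. Between heart and tail fibroblasts the difference was -1.61 for *Igf1r*, -1.30 for *Igfbp2*, 2.58 for *Igfbp4* and 1.44 for *Igfbp6*. The *Igfbp4* value (adjusted p = 0.0402) did not pass without 11 of the 12 libraries of these groups left out singly, HFs replicate 1 being the exception, with an adjusted p between 0.0548 and 0.0981.

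Between kidney and tail fibroblasts it was -2.47 for *Igf1*, -2.25 for *Igfbp2*, -5.55 for *Igfbp5*, -2.33 for *Igfbp6* and -1.24 for *Igfbp7*. The *Igf1* value did not pass without any of KFc replicates 1 to 3, KFs replicate 2, TFc replicates 1 to 3 or TFs replicates 2 and 3 (adjusted p from 0.0527 to 0.0757).

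Between heart and kidney fibroblasts it was 1.96 for *Igf1*, -1.14 for *Igf1r*, 0.94 for *Igfbp2*, 5.41 for *Igfbp5*, 3.77 for *Igfbp6* and 1.27 for *Igfbp7*. The *Igf1* value did not pass when any library of these groups other than KFs replicates 1 and 3 was left out (adjusted p from 0.0518 to 0.0896). The *Igfbp2* value (adjusted p = 0.0346) did not pass without any of HFc replicates 1 to 3, HFs replicate 2, KFc replicates 1 to 3 or KFs replicates 1 and 2 (adjusted p from 0.0513 to 0.0766). Without KFs replicate 1, *Igf2* (2.79, adjusted p = 0.00807), *Igfbp3* (1.96, adjusted p = 0.044) and *Igfbp4* (3.89, adjusted p = 0.000132) also differed between heart and kidney.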

How the results depend on the processing

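Over 108 values (9 genes in 12 comparisons) and their alternatives, 1463 of 1628 refits kept the direction and the side of the threshold, and 56 values kept both under every alternative run. *Igfbp2* and *Igfbp3* in all 3 transplant comparisons, *Igfbp5* in all 3 and *Igf1r* in heart kept their calls in every one. Direction changed only for values that had not passed. For *Igf1r* in HFs against KFs (-0.02), the value was 0.0154 with DESeq2, 0.0153 with its size factors, 0.00547 with no filter, 0.00758 with a mean of at least 10 counts and 0.0138 with only the groups compared. For *Igfbp6* in KFc against TFc it was 0.00936 with DESeq2 and 0.00913 with its size factors, and for *Igfbp7* in the heart response against the tail response it was -0.0428 with library size alone.

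With single libraries left out, the values that changed direction ranged for *Igf2* from -0.0829 to 0.557 in the heart response against the tail response, from -0.269 to 2.79 in the heart response against the kidney response, from -2.50 to 0.589 in the kidney response against the tail response, from -1.59 to 1.51 in HFs against KFs, from -2.46 to 0.616 in KFs against KFc and from -0.231 to 0.427 in TFs against TFc. For *Igf1r* they ranged from -0.13 to 0.0337 in HFs against TFs, from -0.147 to 0.31 in HFs against KFs and from -0.381 to 0.0725 in KFs against TFs. For *Igfbp3* they ranged from -1.24 to 0.385 in HFs against KFs and from -1.22 to 0.266 in the kidney response against the tail response, and for *Igfbp4* from -1.31 to 0.761 in the latter. For *Igfbp5* they ranged from -0.528 to 0.214 in HFc against KFc and from -0.43 to 0.331 in the heart response against the tail response, and for *Igfbp7* from -0.00695 to 0.123 in the latter.

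The number of genes that passed moved by over 1.5 times under few settings. With only the groups compared it was 7 in KFc against TFc and 8 in HFc against KFc, where the cultured libraries with their small spread were fitted alone, and 4 in KFs against TFs, where the more variable transplanted libraries were. There *Igf1*, *Igfbp3* and *Igfbp4* did not pass (adjusted p = 0.202, 0.167 and 0.0824), nor did *Igf1* in HFs against KFs (2.71, adjusted p = 0.084). It was 7 in TFs against TFc with no limit on the fold change. With single libraries left out it ranged from 3 to 5 in HFc against KFc (5 without KFs replicate 3), from 3 to 5 in HFs against TFs (3 without HFs replicate 1) and from 4 to 7 in KFs against KFc (7 without KFs replicate 1). The split of higher and lower genes became 2 and 3 in KFc against TFc with DESeq2's size factors. The added call was *Igf1r* (0.45, adjusted p = 0.0339), which also passed there with DESeq2 (adjusted p = 0.0216), no filter (0.04), a mean of at least 10 counts (0.0439) and only the groups compared (1.05e-08). With library size alone it became 3 and 4 in HFc against TFc and 2 and 2 in HFc against KFc. The share of all genes that passed is not given for any of these settings. The changed counts are therefore not read as particular to the IGF genes.

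Same-numbered libraries did not deviate together (correlations from -0.139 to 0.0792), so the numbers were not taken as pairs. With the replicate block, 5 genes passed in HFs against HFc, since *Igfbp4* did not (1.54, adjusted p = 0.0564), and 3 in the heart response against the tail response, where *Igfbp4* again did not pass (2.58, adjusted p = 0.0573). The block changed no other call. With the longest transcript as length, 19 of 36 IGFBP shares stayed within 1 SD and the largest shift was 7.12 percentage points (*Igfbp7* in HFc fell to 58.5%). Of 512 refits of the pathway genes, 506 kept their call and direction, and the counts of pathway genes stayed within 1.5 times. Depth limits *Igf2*, with 4 to 74 counts per library.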
